A study of Mus musculus with 54 samples.

Results

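A set of 9 genes of meningeal and fibroblast matrix, Col1a1, Col1a2, Col3a1, Col14a1, Dcn, Lum, Scara5, Foxc1 and Igf2, was followed through RNA-seq of whole mouse cerebellum. The genes were taken by name from the deposited expression tables, where all 9 were present among 19232 genes at postnatal day 5 (P5), 19432 at postnatal day 28 (P28) and 17827 at 9 weeks. The libraries came from mice labelled RnaseH2B,Atm Nes-cre (Rnaseh2b/Atm), RnaseH2B,p53 Nes-cre (Rnaseh2b/p53), RnaseH2B Nes-cre (Rnaseh2b), Atm Nes-cre (Atm), p53 Nes-cre (p53) and Control. Nes-cre is a Cre recombinase driven from a Nestin promoter in neural stem and progenitor cells, so that the engineered alleles are cut in neurons and glia of the brain rather than in every cell of the tissue. RNase H2 removes ribonucleotides from DNA, ATM is a kinase that answers DNA breaks, and p53 is the transcription factor that acts downstream of it. At P5 there were 4 Rnaseh2b/Atm, 4 Rnaseh2b/p53, 3 Rnaseh2b, 3 Atm, 3 p53 and 3 Control libraries of total RNA. At P28 there were 5 libraries each of Rnaseh2b/Atm, Rnaseh2b, Atm and Control, made from poly-A RNA. At 9 weeks there were 7 Rnaseh2b and 7 Control libraries of total RNA. The labels give neither the sex of the mice, nor which alleles the Control mice carried, nor whether the meninges were kept on the tissue, and they do not state if each replicate was an animal of its own. The p-values therefore cover no more than the spread among the libraries, which may be technical.

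The meninges that wrap the brain are built by fibroblasts, which descend from mesoderm and neural crest, and similar fibroblasts line larger vessels and the stroma of the choroid plexus. They lay down fibrillar collagen, in which the small proteoglycans decorin and lumican control fibre spacing, and they secrete growth factors into the tissue fluid. The fork-head factor Foxc1 is required for the meninges to form in mice, and meningeal signals act on the cerebellar progenitors that lie beneath the pia. Of the 9 genes, Col1a1 and Col1a2 encode the chains of type I collagen, Col3a1 encodes type III collagen, and Col14a1 encodes a collagen that associates with fibrils. Dcn and Lum encode decorin and lumican, Scara5 encodes a scavenger receptor that binds ferritin and marks fibroblasts of several tissues, and Igf2 encodes insulin-like growth factor 2, which in the brain comes mostly from meninges and choroid plexus.

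Levels are given as deposited log2 CPM (the log2 of a gene's reads scaled to the reads of its library), and differences were tested by limma across all genes of an age. A gene rose or fell where its Benjamini-Hochberg adjusted p was below 0.05, and all 9 genes passed the filter at each age, which asked for 1 CPM in a number of libraries equal to the size of the smallest group. Errors are SD for levels and standard errors for differences. Levels of different genes are compared only in FPKM, which is also scaled to transcript length.

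Several libraries stood apart before any comparison. Replicate 3 of Rnaseh2b at P5 held a summed level of 561 CPM over 11 cartilage and bone genes, against 48.3 to 76.0 CPM in every other P5 library. It had 8588 reads of Ibsp and 2100 of Bglap, both bone matrix genes, against 145 and 185 reads of Ibsp and 31 and 19 of Bglap in replicates 1 and 2 of its group (genes chosen after their values were seen). Control replicate 2 and Atm replicate 1 at P5 were low in granule neuron genes, with 488 and 167 CPM summed over 10 genes. Replicate 3 of Rnaseh2b/p53 had 711 M reads in genes, where the other P5 libraries had 48.2 to 95.1 M and the P28 libraries 24.1 to 89.7 M. The label check gave lower Rnaseh2b transcripts in all groups that carry its name, and lower Trp53 transcripts in both p53 groups. Atm transcripts averaged 4.79 ± 0.15 log2 CPM in P28 libraries labelled Atm, against 4.83 ± 0.06 in Control libraries (n = 5 each), so those libraries are called by their label only. In the P28 Rnaseh2b/Atm libraries they averaged 4.05 ± 0.05. At P5 Atm transcripts averaged 5.54 ± 0.19 log2 CPM in Rnaseh2b/Atm and 5.58 ± 0.50 in libraries labelled Atm, against 5.87 ± 0.46 in Control libraries, and the ranges overlapped, so neither group's Atm label was checked by them.

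At P5 part of the matrix genes rose in Rnaseh2b/Atm cerebellum. Against Control 5 of the 9 rose and none fell, where 9.86% of all tested genes were called and 6.48% rose. The called genes were Col3a1, Dcn, Scara5, Foxc1 and Igf2. The 9 differences had a median of 0.64 on the log2 scale, and those of all tested genes one of 0.01. In RNA from whole tissue, more cells of a type and more RNA per cell cannot be told apart.

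Scara5, the receptor among the 9, moved most. It was at 2.23, 2.13, 2.43 and 2.02 log2 CPM in Rnaseh2b/Atm libraries, against 0.78, -0.27 and 0.69 in Control libraries. Every Rnaseh2b/Atm library lay above every Control library, and the difference was 1.80 ± 0.25 (3.49-fold, limma adjusted p = 0.00065). Reads numbered 544, 492, 577 and 428 in the Rnaseh2b/Atm libraries, against 125, 58 and 172 in Control libraries.

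Col3a1 was at 8.33, 8.65, 8.77 and 8.32 log2 CPM in Rnaseh2b/Atm libraries, against 8.12, 7.78 and 7.81 in Control libraries, a difference of 0.61 ± 0.13 (limma adjusted p = 0.01). Foxc1 was at 3.79, 4.09, 4.27 and 3.78 log2 CPM in Rnaseh2b/Atm libraries, against 3.54, 3.15 and 3.18 in Control libraries, a difference of 0.70 ± 0.14 (adjusted p = 0.0067). For both genes Control replicate 1 was the highest Control library, and the groups did not overlap. Rnaseh2b/Atm lay wholly above Control for 6 of the 9 genes (Col1a2, Col3a1, Lum, Scara5, Foxc1, Igf2) and for 10% of all tested genes. Igf2 was at 7.22, 7.74, 7.87 and 7.25 log2 CPM in Rnaseh2b/Atm libraries, against 7.0, 6.94 and 6.84 in Control libraries, a difference of 0.59 ± 0.15 (adjusted p = 0.024). Replicates 2 and 3 of Rnaseh2b/Atm were the high ones for Col3a1, Foxc1 and Igf2 alike.

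Dcn was at 5.98, 6.15, 6.26 and 5.86 log2 CPM in Rnaseh2b/Atm libraries, against 5.90, 4.83 and 5.28 in Control libraries. The groups overlapped at Control replicate 1, and the difference of 0.73 ± 0.21 passed narrowly (limma adjusted p = 0.037). Leaving out 1 of the 7 libraries at a time, the call of Dcn was lost 5 times, that of Igf2 3 times, that of Col3a1 1 time and those of Scara5 and Foxc1 0 times. Control replicate 2, low in granule neuron genes, was also the lowest Control library for Dcn, Lum, Scara5 and Col14a1 and, narrowly, for Col3a1 and Foxc1. It was the highest for Col1a1 and Col1a2. Without it and Atm replicate 1 the same number of genes, 5, was called, and the Dcn difference was 0.47. Lum, Col1a2, Col1a1 and Col14a1 had differences of 0.85 ± 0.31, 0.64 ± 0.29, 0.33 ± 0.43 and 0.20 ± 0.23 that did not pass. In a fit of these 2 groups alone no gene of the 9 was called, and with Xist as a covariate 3 were. The shares of all tested genes called in these fits are not given here, so the counts are not weighed against all genes. Xist, the RNA of the inactive X chromosome, was at 7.72 and 7.47 log2 CPM in replicates 3 and 4 of Rnaseh2b/Atm and below -2 in replicates 1 and 2, against 7.73 to 8.46 in Control libraries. The other P5 groups also differed from Control in this. Xist ran from -0.69 to 7.81 log2 CPM in Rnaseh2b and from -0.47 to 7.79 in libraries labelled Atm. It ran from -0.85 to 8.35 in p53 and from -2.18 to 8.29 in Rnaseh2b/p53. Without Control replicate 3 only Scara5 and Foxc1 were called, 2 genes, and without Rnaseh2b/Atm replicate 2 or 3 there were 3.

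Against libraries labelled Atm, 5 of the 9 rose in Rnaseh2b/Atm at P5, where 9.5% of all tested genes were called and 7.48% rose. These were Scara5 at 1.56 ± 0.25, Lum at 1.17 ± 0.31, Dcn at 0.97 ± 0.21, Foxc1 at 0.77 ± 0.14 and Col3a1 at 0.74 ± 0.13. Leaving out 1 of the 7 libraries at a time, the Lum call was lost 4 times and the others held. Choroid plexus sums ran from 1576 to 2586 CPM in Rnaseh2b/Atm, against 123 to 1220 CPM in the libraries labelled Atm. With the mean of the choroid plexus genes as a covariate, chosen after the data were seen, Scara5, Col3a1 and Foxc1 were called, at 0.79, 0.55 and 0.49, while Lum was at 0.42 (limma adjusted p = 0.4) and Dcn at 0.36 (adjusted p = 0.21). With the same covariate the Dcn difference from Control was 0.39 (adjusted p = 0.092).

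Other genes of the same tissue were taken from lists written with earlier results of these data known. Of these, 11 of 23 other fibroblast matrix genes rose and none fell against Control, with a median of 0.49. They included Col5a1, a minor fibrillar collagen chain, at 0.93 ± 0.13 and Col6a1 at 0.74 ± 0.15. Of 16 genes of meningeal identity 6 rose and none fell, with a median of 0.60, among them the bone morphogenetic protein gene Bmp6 at 0.80 ± 0.16, Cyp1b1 at 0.73 ± 0.15 and the retinoic acid synthesis gene Aldh1a2 at 0.76 ± 0.18. Of 15 genes around Igf2 5 rose, with H19, the imprinted neighbour of Igf2, at 1.10 ± 0.24 and Igf1 at 0.78 ± 0.10. Of the other lists, 4 of 19 collagen maturation genes, 3 of 17 TGF-beta genes, 4 of 7 border macrophage genes and 3 of 11 mural genes rose, and none of 10 endothelial genes was called by limma. In this comparison 9.86% of all tested genes were called and 6.48% rose. Granule neuron sums were 420 to 709 CPM in Rnaseh2b/Atm, against 488 to 1407 CPM in Control libraries, and 1 of 10 granule genes fell. Choroid plexus genes were higher by a median of 1.58, with 1 of 13 called. Purkinje cell sums ran from 1412 to 2120 CPM in Rnaseh2b/Atm, against 535 to 1119 CPM in Control libraries. Of 8 Purkinje cell genes only Slc1a6 was called (limma adjusted p = 0.0013). Of 11 skeletal muscle genes 7 rose, with a median of 1.89 and sums of 25.9 to 59.5 CPM in Rnaseh2b/Atm, against 11.7 to 16.7 CPM in Control libraries. None of 5 cartilage and bone genes was called. The part of any of these in the matrix result was not tested.

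In Rnaseh2b cerebellum at P5 Col14a1 was the 1 gene of the 9 called against Control, where 0.681% of all tested genes were called and 0.298% rose. It was at 2.75, 3.85 and 4.18 log2 CPM in Rnaseh2b libraries, against 2.50, 2.15 and 2.51 in Control libraries. Replicates 2 and 3 were high, replicate 1 was just above Control, and the groups did not overlap. Rnaseh2b lay wholly above Control for 3 of the 9 genes (Col14a1, Col1a2, Scara5) and for 6.46% of all tested genes. The Col14a1 difference was 1.21 ± 0.24 (limma adjusted p = 0.032). Without replicate 3 it was 0.92 (adjusted p = 0.22), and without Control replicate 2 and Atm replicate 1 it was 1.09 (adjusted p = 0.064). No gene was called without Control replicate 2 or 3 either, and without Control replicate 1 there were 2, Col14a1 and Scara5. In the fit of all groups 7 of the 9 had an unadjusted limma p below 0.05, all of them higher. They were Col14a1, Col1a1, Col1a2, Col3a1, Lum, Scara5 and Foxc1, and 2043 of all 15421 tested genes had such a p. By voom on recovered reads none of the 9 was called, and none was with Xist as a covariate. In the same comparison none of 23 other fibroblast matrix genes and none of 16 meningeal identity genes was called by limma, with medians of 0.35 and 0.11.

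Type I collagen in this group was highest in the library with high bone genes. Col1a1 was at 6.47, 6.86 and 9.13 log2 CPM in Rnaseh2b libraries, against 5.88, 6.68 and 6.06 in Control libraries. Col1a2 was at 7.64, 7.54 and 9.33 log2 CPM in Rnaseh2b libraries, against 7.18, 7.32 and 7.09 in Control libraries. The highest values are those of replicate 3, which held 114 FPKM of Col1a1 and 70.8 FPKM of Col1a2, more of Col1a1 than of Col1a2. Col1a1 also exceeded Col1a2 in FPKM in replicate 2 of the group and in Control replicate 2. The differences of 1.28 ± 0.46 for Col1a1 and 0.97 ± 0.31 for Col1a2 did not pass, and without replicate 3 they were 0.46 and 0.39. Lum was high in the same library, at 4.79 log2 CPM, whereas its Col3a1 at 8.44 and Dcn at 6.20 lay within 0.4 of replicate 1 of the group. Scara5 had a difference of 1.14 ± 0.27 that did not pass (adjusted p = 0.06).

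With p53 also deleted the genes lay near the single p53 mutant. Their differences ran from -0.15 for Lum to 0.15 for Foxc1. None of the 9 was called by limma in Rnaseh2b/p53 against p53, where 0.188% of all tested genes were called, and none had an unadjusted p below 0.05. Nor was any called against Control, where 0.428% of all tested genes were called. Scara5 alone had an unadjusted p below 0.05 there, with a difference of 0.69 ± 0.25, and voom on recovered reads called none in either comparison. Scara5 was at 1.09, 1.37, 1.05 and 0.86 log2 CPM in Rnaseh2b/p53 libraries, against 0.94, 0.96 and 1.0 in p53 libraries. Igf2 was at 6.65, 6.62, 6.58 and 6.61 log2 CPM in Rnaseh2b/p53 libraries, against 6.77, 6.84 and 6.49 in p53 libraries. Replicate 3 of Rnaseh2b/p53, the library of greatest depth, lay within the range of its group or within 0.1 of it for all 9 genes.

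Against Rnaseh2b libraries, 4 of the 9 fell in Rnaseh2b/p53, where 3.02% of all tested genes were called and 1.91% fell. Col1a1, at 5.62, 5.67, 5.88 and 5.97 log2 CPM in Rnaseh2b/p53 libraries, had a difference of -1.70 ± 0.43, and Col1a2, Col14a1 and Col3a1 had differences of -1.28 ± 0.29, -1.47 ± 0.23 and -0.55 ± 0.13. Without Rnaseh2b replicate 3, only Col14a1 at -1.18 and Col1a2 at -0.71 were called, and Col1a1 was at -0.88 (limma adjusted p = 0.15). Without any 1 of the 4 Rnaseh2b/p53 libraries, 1 gene was called. Against the same libraries, Rnaseh2b/Atm differed in 2 genes, where 2.04% of all tested genes were called, 1.38% rose and 0.655% fell. Igf2 rose by 0.63 ± 0.15 and Col14a1 fell by 1.0 ± 0.23. Neither was called without replicate 2 or 3 of Rnaseh2b or of Rnaseh2b/Atm, and 1 was called without replicate 1 or 4 of Rnaseh2b/Atm. For the difference of effects, limma called none of the 9 with Atm and none with p53, where 0% and 0.00648% of all tested genes were called. There 2 and 4 of the 9 had an unadjusted p below 0.05, as had 884 and 1011 of all 15421 tested genes, and voom called none of them in either case. Without Rnaseh2b replicate 1 the p53 difference of Col14a1 was -1.66 (limma adjusted p = 0.0029).

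The libraries labelled Atm and the p53 libraries at P5 gave no call among the 9 by limma against Control, where 0% and 0.175% of all tested genes were called. None of the 9 had an unadjusted p below 0.05 with Atm and Scara5 alone had one with p53, at 0.57 ± 0.27, and voom called none in either. Igf2 was at 7.30, 7.04 and 7.20 log2 CPM in libraries labelled Atm, all above the 6.84 to 7.0 of Control libraries, with a difference of 0.25 ± 0.17. It was the 1 gene of the 9 to lie wholly above Control there, as did 1.42% of all tested genes.

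**Figure D1:**
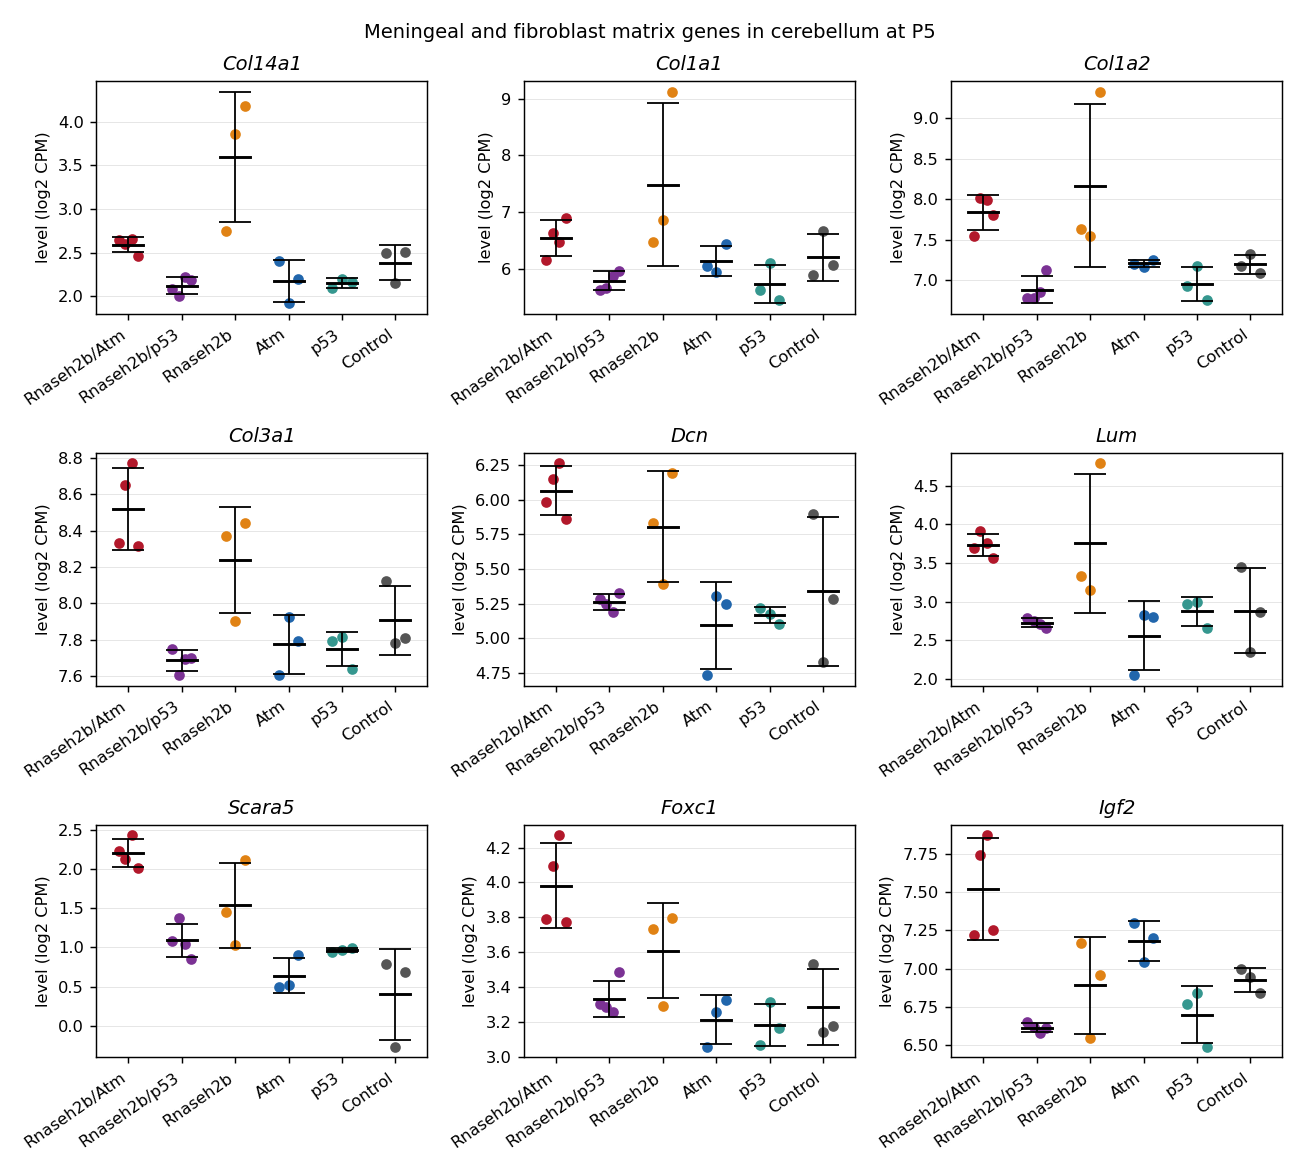
Level of each gene (log2 CPM, vertical axis with its own range in each panel) in every P5 library by group, with points for libraries and bars for the mean ± SD of 3 or 4 libraries. Scara5 is at 2.02 to 2.43 in Rnaseh2b/Atm against -0.27 to 0.78 in Control, and the single high Rnaseh2b points of Col1a1, Col1a2 and Lum are all replicate 3.

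Per transcript length Col3a1 had the highest mean of the 9 in Rnaseh2b/Atm and in Control at P5, with 58.5 ± 9.10 FPKM in Rnaseh2b/Atm (n = 4) and 37.7 ± 6.24 in Control libraries (n = 3). Dcn and Igf2 followed, at 46.1 ± 5.53 and 45.2 ± 10.2 FPKM in Rnaseh2b/Atm, against 28.9 ± 11.7 and 29.0 ± 2.02 in Control libraries. The ranges of all 3 overlapped in Rnaseh2b/Atm, and in Control libraries that of Dcn overlapped both others while Igf2 lay below Col3a1. Col14a1 at 1.14 ± 0.0727 and Scara5 at 1.01 ± 0.127 FPKM came last in Rnaseh2b/Atm, where their ranges overlapped. In Control libraries they were at 0.985 ± 0.165 and 0.300 ± 0.113 FPKM, and their ranges did not overlap. The P5 and P28 libraries were made from different kinds of RNA, so levels are not compared between ages.

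At P28 nearly all of the matrix genes rose in Rnaseh2b/Atm cerebellum. Of the 9 genes, 8 rose against Control and none fell, where 63.6% of all tested genes were called in either direction and 31.5% rose. The members' differences had a median of 1.42 on the log2 scale, and all tested genes one of -0.02. The exception was Col14a1, whose difference was 0.07 ± 0.26.

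Among the fibrillar collagens, Col3a1 stood at 6.21, 6.14, 6.24, 6.41 and 6.01 log2 CPM in Rnaseh2b/Atm libraries, against 4.35, 4.71, 4.25, 4.41 and 4.19 in Control libraries. It was at 4.37, 4.69, 4.66, 4.52 and 4.55 in Rnaseh2b libraries, and at 4.89, 5.02, 4.73, 4.84 and 4.85 in libraries labelled Atm. Every Rnaseh2b/Atm library lay above every other P28 library, and each Atm library lay above each Control library. The difference from Control was 1.82 ± 0.09 in Rnaseh2b/Atm (3.52-fold, limma adjusted p = 1.1e-11) and 0.48 ± 0.09 in libraries labelled Atm (adjusted p = 0.007).

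Col1a2 was at 7.20, 6.85, 7.12, 7.11 and 7.12 log2 CPM in Rnaseh2b/Atm libraries, against 5.80, 6.44, 5.66, 5.45 and 5.35 in Control libraries. The groups did not overlap, although Control replicate 2 stood above the other Control libraries, and the difference was 1.34 ± 0.16 (limma adjusted p = 5.1e-07). Col1a1 was at 6.12, 5.38, 5.89, 6.22 and 6.01 log2 CPM in Rnaseh2b/Atm libraries, against 4.76, 5.45, 4.52, 4.21 and 3.85 in Control libraries. Here Rnaseh2b/Atm replicate 2 fell below Control replicate 2, so the groups overlapped by these libraries. Its difference of 1.37 ± 0.25 was called nonetheless (adjusted p = 0.0001), with the widest spread among the 3 fibrillar collagen genes.

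Col14a1 did not share the pattern. It was at 0.86, -0.36, 0.20, 0.73 and 0.10 log2 CPM in Rnaseh2b/Atm libraries, against 0.70, 0.52, 0.26, -0.56 and 0.26 in Control libraries, and the groups covered much the same range. These values rest on 40 to 164 reads per Rnaseh2b/Atm library, against 37 to 138 per Control library. The spread of Col14a1 between libraries of a group, an SD of 0.43 pooled over the P28 groups, limits how small a change these libraries could show.

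The proteoglycans moved with the fibrillar collagens. Lum was at 3.87, 3.77, 3.38, 3.93 and 3.39 log2 CPM in Rnaseh2b/Atm libraries, against 1.69, 2.35, 1.67, 1.64 and 1.81 in Control libraries, a difference of 1.84 ± 0.15 (limma adjusted p = 5.4e-09). Dcn was at 5.71, 5.91, 5.54, 5.95 and 5.51 log2 CPM in Rnaseh2b/Atm libraries, against 4.29, 4.56, 4.15, 4.27 and 4.26 in Control libraries, a difference of 1.42 ± 0.09 (adjusted p = 3.0e-10). For neither gene did a Rnaseh2b/Atm library reach down to any library of the other 3 groups.

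Scara5 again had the largest difference, from low counts. It was at 2.59, 1.89, 1.95, 2.75 and 1.83 log2 CPM in Rnaseh2b/Atm libraries, against 0.18, -1.68, -0.49, -0.07 and 0.18 in Control libraries. The Rnaseh2b/Atm libraries held 544, 192, 250, 428 and 143 reads, against 96, 20, 22, 59 and 64 in Control libraries. The groups did not overlap, and the difference was 2.58 ± 0.55 (limma adjusted p = 0.00047). With the choroid plexus mean as a covariate it was 1.65 (adjusted p = 0.00048), the largest shift of any P28 difference under that setting.

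The transcription factor Foxc1 changed least of the called genes. It was at 2.54, 3.07, 2.51, 3.0 and 2.76 log2 CPM in Rnaseh2b/Atm libraries, against 1.91, 2.07, 1.93, 1.84 and 1.52 in Control libraries. These groups did not overlap, and the difference was 0.92 ± 0.14 (limma adjusted p = 1.0e-05).

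Igf2, the secreted ligand of the group, rose at P28 in Rnaseh2b/Atm, in Rnaseh2b and in libraries labelled Atm. It was at 8.61, 8.30, 8.56, 8.91 and 8.50 log2 CPM in Rnaseh2b/Atm libraries, at 7.33, 7.50, 7.62, 7.23 and 7.36 in Rnaseh2b libraries and at 7.61, 7.55, 7.46, 7.55 and 7.44 in libraries labelled Atm, against 6.83, 6.89, 7.03, 6.69 and 6.74 in Control libraries. All 15 libraries whose labels name Rnaseh2b or Atm lay above all 5 Control libraries. The differences from Control were 1.74 ± 0.09 in Rnaseh2b/Atm, 0.57 ± 0.09 in Rnaseh2b and 0.68 ± 0.09 in libraries labelled Atm, with limma adjusted p of 2.4e-11, 0.0037 and 0.00034. These comparisons share their Control libraries. Of all tested genes, 23.5% lay wholly above Control in Rnaseh2b/Atm, 3.43% in Rnaseh2b and 1.8% in libraries labelled Atm.

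**Figure D2:**
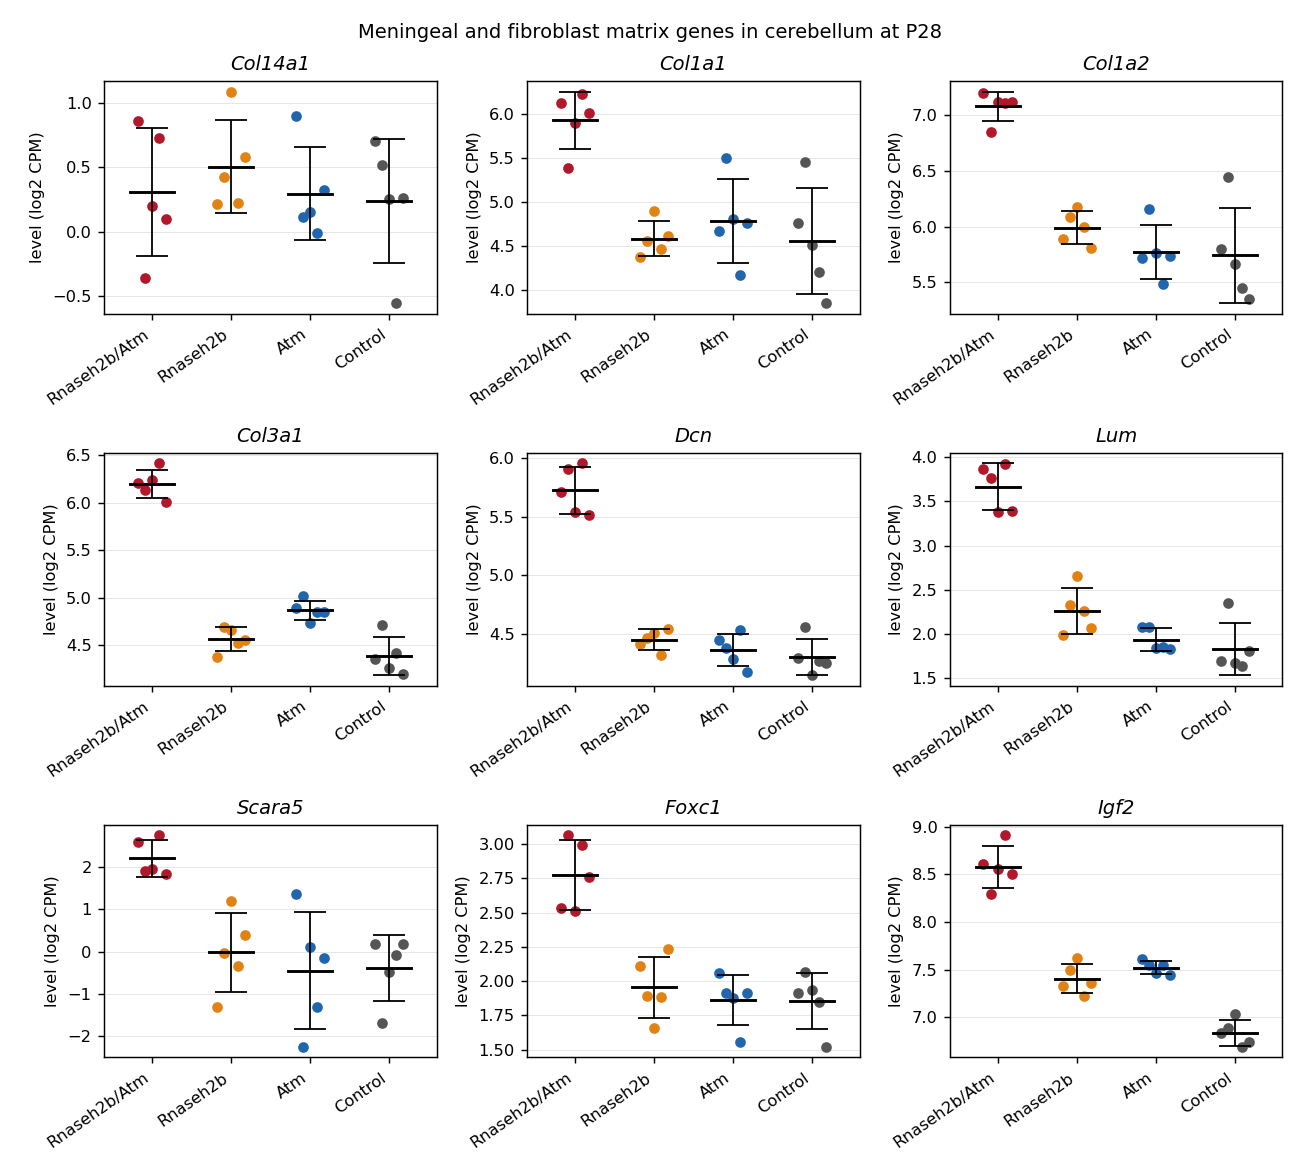
Level of each gene (log2 CPM, vertical axis with its own range in each panel) in every P28 library by group, with points for libraries and bars for the mean ± SD of 5 libraries. The Rnaseh2b/Atm libraries sit above the Control libraries for 7 of the 9 genes, as for 23.5% of all tested genes, overlap by a library for Col1a1, and share the range of Control for Col14a1.

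In the P28 libraries labelled Rnaseh2b or Atm alone few of the genes moved. In Rnaseh2b libraries Igf2 was the only called gene against Control, 1 of 9, where 5.21% of all tested genes were called and 2.85% rose. Lum had a difference of 0.43 ± 0.15 that did not pass (limma adjusted p = 0.093). Without Control replicate 2, the library with the highest Lum, Col1a1 and Col1a2 of its group, 4 genes were called, Igf2, Lum, Col1a2 and Col3a1, at differences of 0.58, 0.56, 0.42 and 0.26. In libraries labelled Atm, Col3a1 and Igf2 rose, 2 of 9, where 1.86% of all tested genes were called and 0.944% rose, and none of the other 7 had a difference above 0.23.

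Rnaseh2b/Atm also stood above the Rnaseh2b libraries and above the libraries labelled Atm. Against libraries labelled Atm, 8 of the 9 rose in Rnaseh2b/Atm, where 61% of all tested genes were called and 30% rose, with differences of 0.91 ± 0.14 for Foxc1 to 2.65 ± 0.55 for Scara5. Against Rnaseh2b libraries the same 8 rose, where 49.5% of all tested genes were called and 24.9% rose, with differences of 0.82 ± 0.14 for Foxc1 to 2.22 ± 0.55 for Scara5. Col14a1 was at 0.01 ± 0.26 and -0.20 ± 0.26 in these comparisons. The difference of effects, which is the effect of Rnaseh2b in libraries with the Atm label less its effect without, was above 0 for the same 8 genes, where 37.7% of all tested genes were called and 18.7% were above 0. It was 2.30 ± 0.78 for Scara5 and 1.16 ± 0.13 for Col3a1 (limma adjusted p = 0.026 and 2.6e-06). Without Rnaseh2b replicate 1 that of Scara5 was 1.97 (adjusted p = 0.053). For Igf2 it was smallest, at 0.49 ± 0.13 (adjusted p = 0.0068). The groups with the Atm label also differed in Atm transcripts themselves. Rnaseh2b/Atm was at -0.73 ± 0.07 against libraries labelled Atm (limma adjusted p = 1.4e-08). The part of this in the difference of effects was not tested.

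Per transcript length, Igf2 was the most abundant of the 9 at P28, with 70.8 ± 11.1 FPKM in Rnaseh2b/Atm libraries, against 20.7 ± 1.93 in Control libraries (SD, n = 5 each). Dcn came next, with 27.7 ± 3.68 FPKM in Rnaseh2b/Atm and 10.2 ± 1.07 in Control libraries. Below it the order was Col1a2, Col1a1, Col3a1, Lum and Foxc1 in both groups, from 11.3 ± 1.05 down to 1.75 ± 0.296 FPKM in Rnaseh2b/Atm and from 4.53 ± 1.49 down to 0.906 ± 0.121 FPKM in Control libraries. The ranges of neighbours overlapped between Col1a2 and Col1a1 and between Col1a1 and Col3a1 in both groups, and between Col3a1 and Lum in Control libraries only. Only the last places changed. Scara5 was at 0.789 ± 0.243 FPKM in Rnaseh2b/Atm and 0.138 ± 0.0564 in Control libraries, while Col14a1 was at 0.186 ± 0.0615 in Rnaseh2b/Atm and 0.173 ± 0.0502 in Control libraries. So Scara5 lay above Col14a1 in every Rnaseh2b/Atm library, while the ranges of the pair overlapped in Control libraries.

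The promoter sequences are shown because these members rose together at P28. They allow short motifs ahead of a fibrillar collagen, a transcription factor and a growth factor gene to be set side by side. Entries of RefSeq on the GRCm38.p6 build were matched by symbol for 4 of the 9 genes, Col1a2, Col3a1, Foxc1 and Igf2. The 250 bases before the start were searched on both strands for CCAAT (the box bound by NF-Y, and ATTGG on the other strand), GGGCGG (the GC box bound by Sp1, and CCGCCC on the other strand) and TATAAA (the TATA box, and TTTATA on the other strand), and matches stand in capitals. No 2 matches overlapped in these windows. Of 32851 promoter windows of the same length, 33.8% held CCAAT, 32.7% held GGGCGG and 12.4% held TATAAA. The lines below run 5′ to 3′ on the gene's strand, for Col1a2 at chr6:4505368-4505617 (plus strand), Col3a1 at chr1:45311288-45311537 (plus strand), Foxc1 at chr13:31806396-31806645 (plus strand) and the last of the 4 Igf2 starts at chr7:142657497-142657746 (minus strand).
Col1a2: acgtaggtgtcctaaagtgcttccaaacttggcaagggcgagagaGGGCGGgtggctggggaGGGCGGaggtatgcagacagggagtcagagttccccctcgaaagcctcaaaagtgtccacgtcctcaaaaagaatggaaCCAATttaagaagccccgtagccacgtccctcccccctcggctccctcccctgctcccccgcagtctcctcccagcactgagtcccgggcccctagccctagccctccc
Col3a1: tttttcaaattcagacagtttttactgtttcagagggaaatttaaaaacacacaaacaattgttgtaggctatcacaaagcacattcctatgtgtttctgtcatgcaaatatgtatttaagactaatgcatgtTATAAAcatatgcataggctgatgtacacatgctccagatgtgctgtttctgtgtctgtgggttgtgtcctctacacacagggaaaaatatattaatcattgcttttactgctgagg
Foxc1: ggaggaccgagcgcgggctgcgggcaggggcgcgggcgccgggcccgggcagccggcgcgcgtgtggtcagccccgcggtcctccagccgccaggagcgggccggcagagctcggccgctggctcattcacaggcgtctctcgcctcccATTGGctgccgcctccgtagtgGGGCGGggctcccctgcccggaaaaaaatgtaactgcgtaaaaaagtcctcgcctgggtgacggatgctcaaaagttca
Igf2: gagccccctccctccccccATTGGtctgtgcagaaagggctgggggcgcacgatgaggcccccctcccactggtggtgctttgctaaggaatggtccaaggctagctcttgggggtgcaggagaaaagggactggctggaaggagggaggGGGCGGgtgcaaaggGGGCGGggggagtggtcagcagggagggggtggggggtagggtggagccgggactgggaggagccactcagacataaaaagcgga
The Col1a2 window held 1 CCAAT and 2 GGGCGG, and the Col3a1 window held 1 TATAAA and neither of the others. The Foxc1 window held 1 of each of CCAAT and GGGCGG, as ATTGG and GGGCGG. The printed Igf2 window held 1 CCAAT, as ATTGG, and 2 GGGCGG. Of the other 3 Igf2 starts, 1 held a single GGGCGG, as CCGCCC, and the others none of the 3 motifs. No motif was common to all 4 genes. A match is a description of the letters only, counted at any position in the window, also for the TATA box.

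Most genes of the same lists rose at P28 too. Of 22 other fibroblast matrix genes tested, 20 rose in Rnaseh2b/Atm against Control and 1 fell, with a median difference of 0.77. In this comparison 63.6% of all tested genes were called and 31.5% rose. Col6a3 and Col6a1, chains of the beaded type VI collagen, rose by 2.14 ± 0.14 and 0.84 ± 0.08 on the log2 scale. Col15a1, a collagen next to basement membranes, rose by 1.97 ± 0.18, and Fbln2, the matrix glycoprotein fibulin 2, by 1.41 ± 0.14. Of 17 genes of meningeal identity, 13 rose and 1 fell, with a median of 0.81. Cyp1b1 (a cytochrome P450) rose by 1.96 ± 0.11, Tbx18 (a T-box transcription factor) by 1.73 ± 0.13 and Slc6a13 (a GABA and taurine carrier of leptomeningeal cells) by 1.08 ± 0.10, while Asgr1 fell by 1.80 ± 0.14.

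The machinery that matures collagen was mixed. Of 19 such genes, 9 rose and 3 fell, with a median of 0.24, where 63.6% of all tested genes were called and 31.5% rose. These shares hold for the other lists of this comparison too. The prolyl hydroxylase subunits P4ha2 and P4ha3 rose by 1.25 ± 0.11 and 3.08 ± 0.32, and Adamts14, a procollagen N-propeptidase, by 1.64 ± 0.17. Bmp1, which removes the C-propeptide, fell by 1.47 ± 0.11. Of 14 genes around Igf2, 8 rose and 4 fell, with a median of 0.57. Plagl1, an imprinted transcription factor, rose by 1.20 ± 0.08, Igf1 by 1.29 ± 0.11, the mRNA-binding protein gene Igf2bp2 by 1.72 ± 0.18 and Igfbp4 by 1.40 ± 0.19. Of 16 genes of the TGF-beta pathway, 7 rose and 4 fell around a median of -0.02. Tgfbi, a matrix protein induced by TGF-beta, rose by 2.24 ± 0.16, and Tgfb2 and its receptor genes Tgfbr1 and Tgfbr2 rose by 0.95 ± 0.10, 0.84 ± 0.09 and 0.70 ± 0.09. These are the called genes of smallest adjusted p, and the genes that fell are not named. The summed level of the list ran from 461 to 532 CPM in Rnaseh2b/Atm, against 523 to 569 CPM in Control libraries.

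Markers of other cells moved in the same P28 libraries. Granule neuron genes fell in 8 of 9 cases, with a median of -1.5, where 63.6% of all tested genes were called in either direction. Their summed level ran from 1340 to 2733 CPM (median 1591) in Rnaseh2b/Atm, against 5316 to 6121 CPM (median 5549) in Control libraries. Neurod1 and Pax6, granule lineage factors, fell by 1.79 ± 0.17 and 1.5 ± 0.14. All 6 genes of border macrophages tested rose, with a median of 1.44, and their sum ran from 44.2 to 62.1 CPM in Rnaseh2b/Atm, against 26.3 to 29.2 CPM in Control libraries. The scavenger receptor gene Cd163 rose by 2.49 ± 0.19 and the mannose receptor gene Mrc1 by 1.26 ± 0.17. For the vessel wall, 7 of 10 endothelial genes rose at a median of 0.23 and 4 of 11 mural genes at a median of 0.24, beside the 31.5% of all tested genes that rose. Choroid plexus genes had a median of 1.67, yet only Otx2 of 13 was called, and their sum ran from 525 to 4404 CPM in Rnaseh2b/Atm, against 185 to 1088 CPM in Control libraries. With the mean of that list as a covariate 8 of the 9 genes were called, as without it. Of 8 Purkinje cell genes 5 rose and 1 fell, of 6 cartilage and bone genes 3 rose and 1 fell, and of 6 skeletal muscle genes 2 rose and 2 fell. The part of the lower granule neuron and the higher macrophage RNA in the matrix result was not tested. Of the list genes in the P5 and P28 tables, none had 3 reads or fewer in every library.

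**Figure D3:**
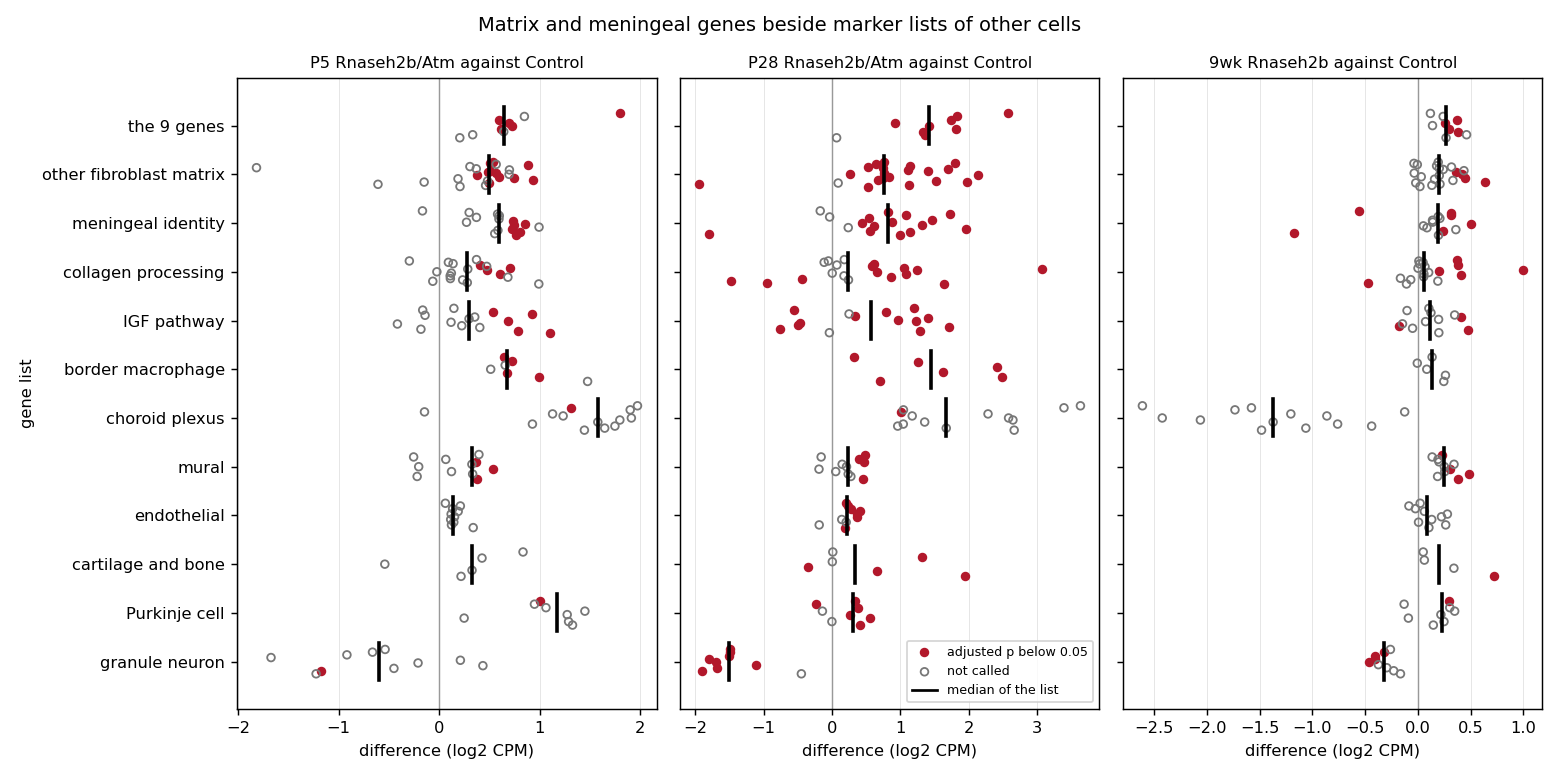
Difference of each tested gene (log2 CPM, horizontal axis with its own range in each panel) in Rnaseh2b/Atm against Control at P5 and P28 and in Rnaseh2b against Control at 9 weeks, by gene list. Filled points passed limma at adjusted p below 0.05, open points did not, and a bar marks the median of a list. At P28 the 9 genes have a median of 1.42, other fibroblast matrix genes one of 0.77 and granule neuron genes one of -1.5.

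At 9 weeks, where the comparison was of Rnaseh2b with Control, the genes showed small rises. Of the 9, 4 rose and none fell, where 20.2% of all tested genes were called and 10.6% rose. The lowest, median and highest Igf2 levels were 5.63, 5.71 and 6.01 log2 CPM in Rnaseh2b libraries, against 5.14, 5.44 and 5.64 in Control libraries, a difference of 0.37 ± 0.08 (limma adjusted p = 0.0066). For Col1a2 they were 4.85, 5.14 and 5.55 log2 CPM in Rnaseh2b libraries, against 4.55, 4.77 and 5.14 in Control libraries, a difference of 0.38 ± 0.11 (adjusted p = 0.024). The groups overlapped for each gene, for Igf2 only at the edge.

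Col3a1 had a lowest, median and highest level of 3.38, 3.60 and 3.97 log2 CPM in Rnaseh2b libraries, against 3.22, 3.36 and 3.52 in Control libraries, with a difference of 0.30 ± 0.09 (limma adjusted p = 0.027). Foxc1 had 2.06, 2.28 and 2.44 log2 CPM in Rnaseh2b libraries, against 1.85, 2.0 and 2.18 in Control libraries, with a difference of 0.25 ± 0.08 (adjusted p = 0.036). Col1a1 spread widely, with an SD of 0.46 in Rnaseh2b and 0.55 in Control libraries, and its larger difference of 0.46 ± 0.23 did not pass. Dcn, Lum, Col14a1 and Scara5 had differences of 0.12 to 0.27, and none of them passed. Leaving out 1 library at a time, 14 in all, the Igf2 call held each time, that of Col1a2 was lost 1 time, that of Col3a1 4 times and that of Foxc1 8 times.

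The 9-week libraries fall into 6 with label codes 11 to 16 and 8 with codes 50 to 58, and the deposited values have the same mean in both sets for every gene. Within either set alone none of the 9 was called by limma, and the share of all tested genes called there is not given here. There 4 (Col14a1, Col3a1, Lum, Igf2) had an unadjusted p below 0.05 within codes 11 to 16 and 3 (Col1a2, Col3a1, Igf2) within codes 50 to 58, where no reads for voom could be recovered. The Igf2 difference was 0.36 within codes 11 to 16 and 0.38 within codes 50 to 58, that of Col1a2 was 0.25 and 0.48, that of Col3a1 was 0.34 and 0.26, and that of Foxc1 was 0.23 and 0.27, so the 4 called genes had the same direction in both. With the choroid plexus mean as a covariate only Igf2 at 0.41 and Foxc1 at 0.31 were called. The choroid plexus genes had a median difference of -1.37, with none of 13 called by limma and sums of 283 to 3667 CPM in Rnaseh2b, against 665 to 4324 CPM in Control libraries.

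Of the other lists at 9 weeks, 4 of 21 fibroblast matrix genes rose, with Col15a1 at 0.64 ± 0.12 and Fbln1 at 0.36 ± 0.09. Beside these and the counts below, 20.2% of all tested genes were called and 10.6% rose. Of 14 meningeal identity genes 4 rose and 2 fell. Gjb2, a gap junction gene, rose by 0.51 ± 0.10. Of 18 collagen maturation genes 5 rose and 1 fell, with Plod1, a lysyl hydroxylase, at 0.38 ± 0.06 and Serpinh1, the collagen chaperone, at 0.37 ± 0.09. Igf1 rose by 0.48 ± 0.07, among 2 of 12 genes around Igf2 that rose and 1 that fell. Granule neuron sums were 1659 to 2647 CPM in Rnaseh2b, against 2806 to 3578 CPM in Control libraries, and 4 of 9 granule genes fell. Of 16 TGF-beta genes 1 rose and 2 fell, of 11 mural genes 4 rose, and of 8 Purkinje cell genes, 4 cartilage and bone genes and 4 skeletal muscle genes 1 each was called. None of 5 border macrophage genes or 10 endothelial genes was called by limma. The part of these in the result was not tested.

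**Figure D4:**
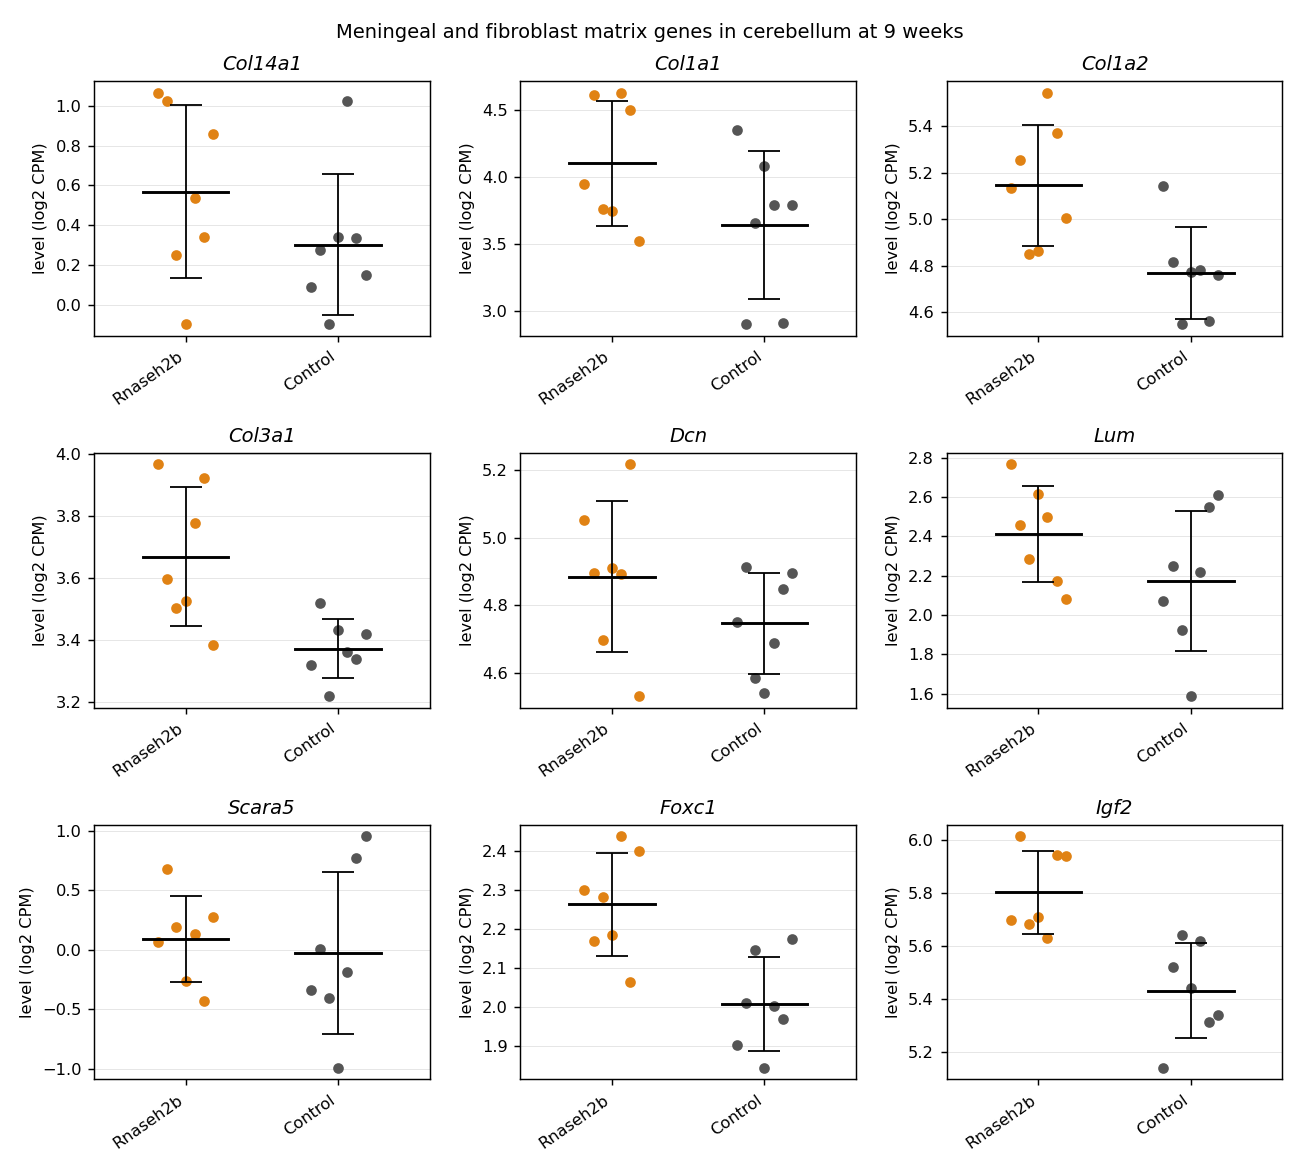
Level of each gene (log2 CPM, vertical axis with its own range in each panel) in each 9-week library of Rnaseh2b and Control, with points for libraries and bars for the mean ± SD of 7 libraries. The groups overlap for every gene, and Igf2 ranges from 5.63 to 6.01 in Rnaseh2b against 5.14 to 5.64 in Control.

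The 9 genes differed in how closely they followed each other from library to library. Over the 20 P28 libraries, which include the differing groups, each gene's Pearson r with the mean of the other 8 was 0.96 for Lum, 0.94 for Dcn and Col3a1, 0.92 for Igf2 and Col1a2, 0.85 for Foxc1, 0.84 for Col1a1, 0.75 for Scara5 and 0.17 for Col14a1. Over the 20 P5 libraries it was 0.92 for Lum and 0.67 for Col14a1, and lowest for Igf2 at 0.52. Over the 14 libraries of 9 weeks it ran from 0.19 for Scara5 to 0.69 for Col1a2. These r describe libraries that share groups and depth, and carry no test.

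The genes outside the set whose levels were most like the mean of the 9 were found in the same way among tested genes of at least 1 log2 CPM. Over the P28 libraries they were Serpinf1, which encodes pigment epithelium-derived factor (r = 0.98), Fam189a2, the cyclin gene Ccnd2, the endocytic adaptor gene Dab2, Agtrap, Plagl1, Oaz2 and Pbxip1 (r = 0.96). Over the P5 libraries they were Lamc1, a laminin chain (r = 0.96), Pcolce, an enhancer of procollagen cleavage, the collagenase gene Mmp2, Ahnak, the proteoglycan gene Bgn, Hexa, Pdgfrb and S1pr3 (r = 0.94). Over the 9-week libraries they were Rimklb (r = 0.91), Id4, Ifngr2, Lyrm5, Lama4, Serpinh1, Lix1 and Ebf2 (r = 0.85).

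**Figure D5:**
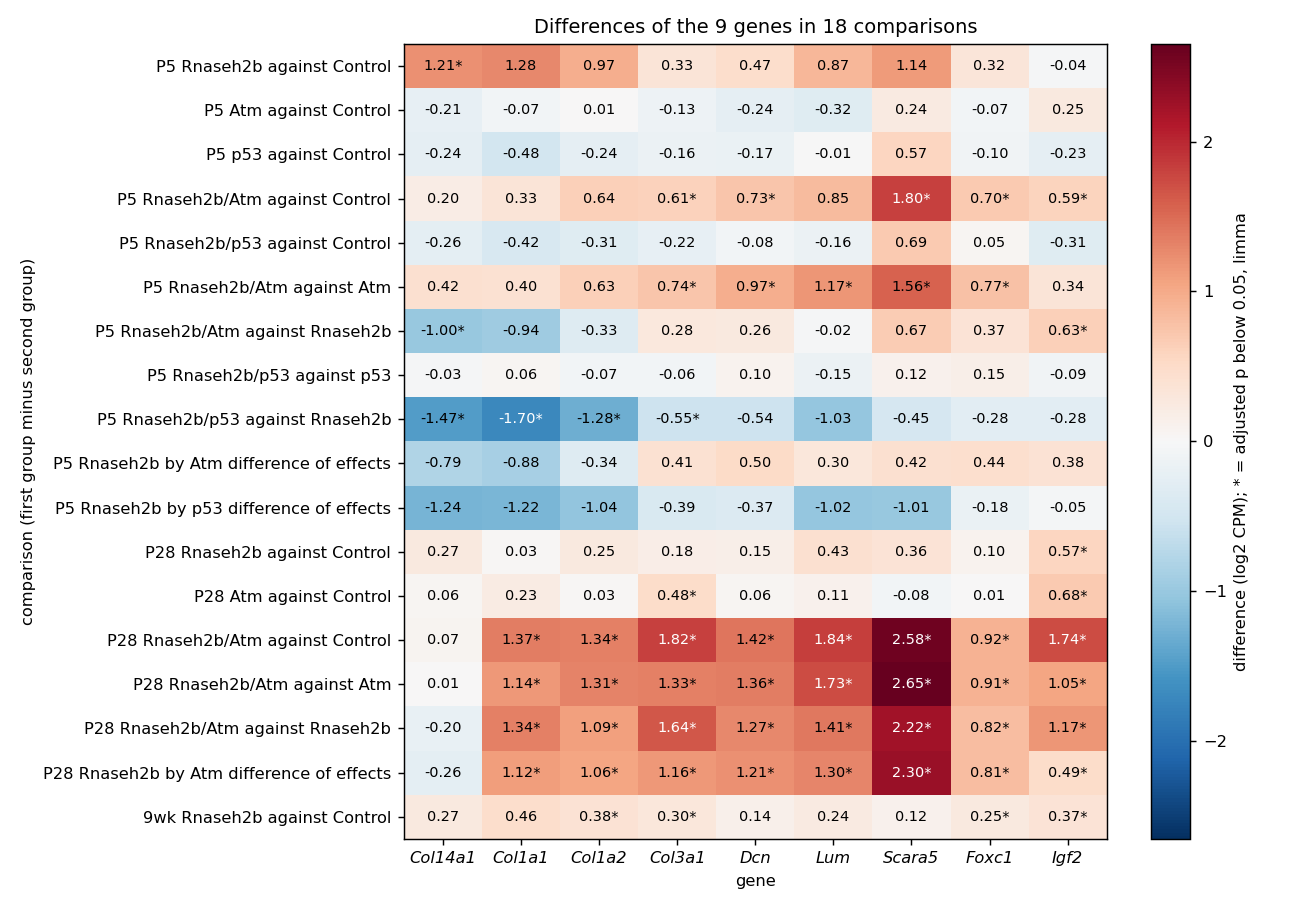
Difference in log2 CPM (colour and number, first group minus second) of each of the 9 genes in each of 18 comparisons by limma, with a star at adjusted p below 0.05, and with P5 above P28 above 9 weeks. The comparisons of Rnaseh2b/Atm at P28 hold 8 starred genes each, Col14a1 carries its stars at P5 only, and comparisons of an age share libraries.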

How the data were processed

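Whole mouse cerebellum was sequenced at P5, P28 and 9 weeks. Per the labels' protocols, RNA was taken up in TRIzol and libraries were made with a stranded total RNA kit for a HiSeq instrument, and the P28 libraries are labelled as poly-A. The submitters' processing notes name the mm9 build and the tools limma, HTSeq, BWA, STAR and Trim Galore, but which step each did is not given in the sources used here. The deposited log2 CPM values were tested as the authors gave them. The deposited FPKM values, scaled by the authors to length, ordered genes at P5 and P28, and with 0.1 or 1 added were an alternative scale. At 9 weeks the deposited values named FPKM hold 30976 values below 0, treated as other than plain FPKM and set to 0 before the log2.

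The log2 CPM at P5 and P28 gave back whole reads (100% of values below 100 CPM within 0.01 of a whole read after a mean prior of 0.5 read), but not at 9 weeks. At P5, 3 entries naming no gene held 19.7% to 31.8% of reads and were left out of the tests and of the library sizes used with recovered reads; the deposited P5 CPM still count them in each library's total, which centring on the library median removes. Of the columns, 0 had no sample.

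All groups of an age were fitted by limma 3.58.1 with a variance trend in R 4.3.3, over 15421 genes at P5, 16530 at P28 and 15078 at 9 weeks that reached 1 CPM in at least 3, 5 or 7 libraries, with Benjamini-Hochberg adjustment over all of them. Scripts were checked on simulated data. Libraries of a group were not copies of each other. Alternatives were no filter, FPKM, only the groups compared, centring, a replicate block, leaving out each library, voom on recovered reads, Xist or label codes as a covariate and, chosen after seeing the data, a choroid plexus covariate. The 9 genes and the 13 other gene lists were chosen with earlier results of these data known. All 9 genes are named, with up to 4 called genes of smallest adjusted p per list and the 8 genes most like the set per age. Among the 9 genes, Scara5 and Col14a1 had the fewest reads. Figures were drawn with matplotlib 3.10.9 in Python 3.11.15.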

Additional observations from a re-analysis of the deposited data

Results flagged for a closer look

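In 3 of 72 groups tested for a library far from the others, 1 library stood off, where chance gives about 1 group in 20. These were Col14a1 in Control replicate 5 at 9 weeks (1.02 log2 CPM), Col1a2 in Rnaseh2b/Atm replicate 2 at P28 (6.85 log2 CPM, below the rest of its group) and Lum in Control replicate 2 at P28 (2.35 log2 CPM, above the rest of its group).

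At P28 the effect of Rnaseh2b differed by the Atm label for 8 of the 9 genes in the limma test of the difference itself. On the log2 scale the difference of effects was 2.30 for Scara5, 1.30 for Lum, 1.21 for Dcn, 1.16 for Col3a1, 1.12 for Col1a1, 1.06 for Col1a2, 0.81 for Foxc1 and 0.49 for Igf2. In the same test 37.7% of all genes were called. Without Rnaseh2b replicate 1, 7 genes were called, and Scara5 was at 1.97 (adjusted p = 0.053). The groups with the Atm label also differed in Atm transcripts, as given above, and the part of this was not tested.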

How the results depend on the processing

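Across 168 settings other than leaving out a library, the count of called genes stayed within 1.5 times in 150. In every comparison of Rnaseh2b/Atm at P28, 8 genes were called under each of these settings. The 18 others were as follows. At 9 weeks 2 genes were called with the replicate block or the choroid plexus covariate and 0 within codes 11 to 16 or 50 to 58, against 4. For Rnaseh2b against Control at P5, 0 were called with only the groups compared, with the replicate block, by voom, with Xist and without the 2 libraries that stand apart, against 1. For Rnaseh2b/Atm against Control at P5, 0 were called with only the groups compared and 3 with Xist, against 5. Against libraries labelled Atm 3 were called with the choroid plexus covariate, against 5. For Rnaseh2b/Atm against Rnaseh2b at P5, 0 were called with only the groups compared or the replicate block and 1 by voom or with Xist, against 2. For Rnaseh2b/p53 against Rnaseh2b, 1 was called with only the groups compared or the replicate block, against 4. The shares of all tested genes called under these settings are not given here, and the cause of the shifts was not tested.

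Leaving out 1 library at a time gave 2 to 4 called genes at 9 weeks, 1 to 4 for Rnaseh2b against Control at P28, and 7 to 8 for the difference of effects at P28. At P5 it gave 0 to 2 for Rnaseh2b against Control, 2 to 5 for Rnaseh2b/Atm against Control, 4 to 5 against Atm, 0 to 2 for Rnaseh2b/Atm against Rnaseh2b, 1 to 4 for Rnaseh2b/p53 against Rnaseh2b and 0 to 1 for the difference of effects with p53. The count of 2 for Rnaseh2b/Atm came without Control replicate 3.

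For the 56 called differences of single genes, 1094 alternatives were run, of which 996 kept the call, 98 lost it and 0 turned direction. Differences that were not called are outside this tally, and some of them changed sign, such as Scara5 at 9 weeks, which ran from -0.21 to 0.55. On the scale of log2(FPKM + 1), which shrinks changes of low genes, the P28 differences of Rnaseh2b/Atm from Control were 0.64 for Scara5 and 0.52 for Foxc1, both called. The main fit took no pairing from replicate numbers. Same-numbered libraries of different groups had a correlation above 0.1 in 0 of 7 pairs at 9 weeks, 12 of 30 at P28 and 21 of 46 at P5. Their mean r was -0.153, 0.025 and 0.012 at these ages, against 0.026, -0.002 and -0.005 for other pairs. Single same-numbered pairs reached 0.45 at P28 and 0.55 at P5, so these values do not exclude a pairing. The replicate block moved the counts of calls given above, and in no other comparison moved them by over 1.5 times.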

Other observations

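Skeletal muscle genes, from a list of 13 of which 11 were tested at P5, were higher at that age in each group labelled with Rnaseh2b. Against Control 7 of 11 rose in Rnaseh2b/Atm and none fell, with a median difference of 1.89, and 6 of 11 rose in Rnaseh2b, with a median of 1.97. Of all tested genes, 6.48% rose in the Rnaseh2b/Atm comparison and 0.298% in the Rnaseh2b comparison. Actc1, the cardiac and embryonic muscle actin gene, rose by 5.70 on the log2 scale in Rnaseh2b/Atm, the fast troponin C gene Tnnc2 by 2.61 and the embryonic myosin gene Myh3 by 3.23. In Rnaseh2b/p53 none of the 11 was called by limma against Control, with a median of 0.88, where 0.428% of all tested genes were called. Against p53, where 0.188% of all tested genes were called, 5 of 11 rose, with a median of 1.91. The summed level was 25.9 to 59.5 CPM in Rnaseh2b/Atm, 21.3 to 36.7 CPM in Rnaseh2b/p53 and 35.5 to 58.4 CPM in Rnaseh2b, against 11.7 to 16.7 CPM in Control libraries.

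A few genes of the fibroblast and meningeal lists went the other way. At P28 Clec3b, which encodes the plasma protein tetranectin, fell by 1.94 ± 0.33 in Rnaseh2b/Atm against Control, and Asgr1 fell by 1.80 ± 0.14. At 9 weeks Asgr1 fell by 1.18 ± 0.17 in Rnaseh2b against Control. In P28 Rnaseh2b libraries, where Igf2 rose alone among the 9, 3 of 14 genes around Igf2 also rose, Igfbp5 by 0.65, Igf1 by 0.61 and Plagl1 by 0.32, while none of 22 other fibroblast matrix genes was called by limma. Of all tested genes 5.21% were called in that comparison and 2.85% rose.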
